A study of Mus musculus with 6 samples.

Results

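The 8 enzymes described here make serine from glucose carbon and pass its carbon to folate. They are Phgdh, Psat1, Psph, Shmt1, Shmt2, Mthfd1, Mthfd1l and Mthfd2, chosen by gene symbol among 56748 genes with earlier results of these data known. All 8 were measured and passed the filter on low values that left 15704 genes for testing. RNA was sequenced from primary airway basal stem cells of wild-type (WT) mouse trachea, grown for 4 days in 1 of 2 conditions. Cells of 3 libraries had received UK-5099, which blocks the carrier that brings pyruvate into mitochondria, and cells of the other 3 had received Y-27632, a kinase inhibitor, together with A8301 and DMH-1, which block TGF-beta and BMP type I receptors (called 3 inhibitors here). The labels give no untreated group, no age or sex of the mice, no doses and no other medium component (so not whether UK-5099 cultures also had Y-27632), and they do not say whether replicates came from separate animals or cultures. A difference is therefore one between the conditions, and p-values measure the spread between these libraries, which may be technical.

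Serine synthesis branches off glycolysis. Phgdh oxidises the glycolytic intermediate 3-phosphoglycerate, Psat1 adds an amino group taken from glutamate, and Psph removes the phosphate to leave serine. Serine hydroxymethyltransferases, Shmt1 in the cytosol and Shmt2 in mitochondria, then move a carbon unit from serine to tetrahydrofolate and leave glycine. In mitochondria Mthfd2 oxidises that folate-bound carbon and Mthfd1l releases it as formate. In the cytosol the single protein Mthfd1 carries out these reactions and supplies folate forms for purines, thymidylate and methionine. Proliferating cells are known to draw on this route, and Phgdh, Psat1, Shmt2 and Mthfd2 are known targets of the stress transcription factor ATF4.

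The promoters of the members are shown first, as RefSeq gives them on GRCm38.p6, another build than that of the deposited table. The 8 members had 9 promoter windows there, each from 250 bases before to 50 bases after an annotated start. Capitals mark the letters of the CCAAT box (CCAAT or ATTGG) and, in Shmt2, of the NRF1 motif (GCATGCGC or GCGCATGC, which overlap there). The first 3 are the serine synthesis genes, all on the minus strand, at chr3:98339920-98340219 for Phgdh, chr19:15925010-15925309 for Psat1 (the upstream of its 2 windows) and chr5:129787204-129787503 for Psph. Mthfd2 (minus strand, chr6:83317555-83317854) and Shmt2 (minus strand, chr10:127522395-127522694) are mitochondrial folate enzymes, the former with CCAAT letters and the latter without.
Phgdh: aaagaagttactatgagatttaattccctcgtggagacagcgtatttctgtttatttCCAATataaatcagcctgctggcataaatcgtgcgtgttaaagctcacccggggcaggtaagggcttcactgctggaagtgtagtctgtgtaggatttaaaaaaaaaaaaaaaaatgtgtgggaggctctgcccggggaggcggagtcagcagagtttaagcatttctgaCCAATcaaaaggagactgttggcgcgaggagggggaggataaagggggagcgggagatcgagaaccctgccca
Psat1: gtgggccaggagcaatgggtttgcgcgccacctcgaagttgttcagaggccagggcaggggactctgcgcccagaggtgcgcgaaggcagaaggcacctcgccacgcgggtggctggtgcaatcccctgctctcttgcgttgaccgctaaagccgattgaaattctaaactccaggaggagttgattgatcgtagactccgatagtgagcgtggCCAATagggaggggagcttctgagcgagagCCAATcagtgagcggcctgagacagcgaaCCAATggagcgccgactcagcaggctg
Psph: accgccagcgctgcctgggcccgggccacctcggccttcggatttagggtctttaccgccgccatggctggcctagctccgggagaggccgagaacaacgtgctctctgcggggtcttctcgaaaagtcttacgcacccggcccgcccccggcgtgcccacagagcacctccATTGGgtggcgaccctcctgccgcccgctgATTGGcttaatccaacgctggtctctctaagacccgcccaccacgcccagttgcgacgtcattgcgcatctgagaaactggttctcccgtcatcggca
Mthfd2: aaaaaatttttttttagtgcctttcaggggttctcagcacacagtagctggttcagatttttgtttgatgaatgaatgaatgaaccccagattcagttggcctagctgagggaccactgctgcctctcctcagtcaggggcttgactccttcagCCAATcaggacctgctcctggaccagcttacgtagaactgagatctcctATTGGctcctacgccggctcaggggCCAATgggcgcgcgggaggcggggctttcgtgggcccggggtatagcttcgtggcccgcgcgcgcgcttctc
Shmt2: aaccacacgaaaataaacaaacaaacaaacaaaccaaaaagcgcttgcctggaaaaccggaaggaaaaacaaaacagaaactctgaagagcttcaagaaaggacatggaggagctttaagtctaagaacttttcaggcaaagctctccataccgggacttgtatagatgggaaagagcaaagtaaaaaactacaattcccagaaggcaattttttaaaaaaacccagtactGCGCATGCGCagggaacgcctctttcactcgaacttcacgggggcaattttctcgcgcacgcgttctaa

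CCAAT letters on either strand were in 6 of the 9 windows, those of Phgdh, Psat1, Psph, Shmt1, Mthfd1 and Mthfd2, against 37.4% of all 32851 promoter windows. Mthfd2 had them 3 times, at 96, 47 and 22 bases before its start. Psat1 also had them 3 times. The windows of Shmt2, Mthfd1l and the downstream start of Psat1 had none. The letters TGATGNAA of the composite element bound by ATF4 and C/EBP proteins were in none of the 9 windows and in 3.97% of all. The E-box CACGTG was in none and in 7.15% of all, and the E2F forms TTTCCCGC and TTTGGCGC were in none, against 1.07% and 0.514%. The NRF1 letters were in 1 window, that of Shmt2, against 2.71%. These matches are descriptions of short windows and not binding sites.

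Libraries held 19909589 to 27037795 gene reads, recovered from the deposited values. Of 15704 genes tested, 4275 were higher and 4174 lower with UK-5099 (limma, Benjamini-Hochberg adjusted p under 0.05), so that 50.6% of the calls were higher. Setting the median of the genes tested equal in all libraries (median centring) changed that share to 39.1%. Of 10 airway basal cell markers 7 were higher and 2, Ngfr and Aqp3, lower, with summed normalized counts of 285715 to 307312 with UK-5099 and 151125 to 165909 with the 3 inhibitors. Most of that sum came from Krt5, Krt14, Krt15, Aqp3 and Itga6, whereas Dapl1 held 20.1 to 70.6 and Ngfr 56.0 to 351.5 normalized counts. Secretory cell markers were lower in all 7 tested of 10, with sums of 12508 to 14795 and 58403 to 61245. Among multiciliated cell markers 5 of 8 were tested and 2 were higher, Rsph1 and Tubb4b, the latter a tubulin of many cell types (sums of 7266 to 7973 with UK-5099 and 6117 to 6433 with the 3 inhibitors). Fibroblast markers summed to at most 15.8 normalized counts in any library, with Col1a2, Col3a1 and Lum at 0 throughout. Of 6 leukocyte markers 1 was tested, Cd68, which was not called, and Ptprc stayed at or below 1.03 normalized counts (sums of 487.2 to 701.5 with UK-5099 and 487.8 to 529.8 with the 3 inhibitors). Of 5 endothelial markers 1 was tested, Vwf, which was lower, and Cdh5 and Emcn were at 0 in every library (sums of 45.72 to 60.32 with UK-5099 and 117.1 to 138.1 with the 3 inhibitors). Xist was 1.70-fold higher with UK-5099, and Ddx3y, Eif2s3y, Kdm5d and Uty of the Y chromosome were 1.52-fold to 2.15-fold lower. The part of cell makeup, and of this difference between X and Y chromosome genes, in the results below was not tested. In such bulk samples a change in the share of a cell type cannot be told apart from a change in RNA per cell.

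All 8 members were higher with UK-5099, where 27.2% of all genes tested were higher and 53.8% were called in either direction. The members were chosen with earlier results of these data known, so the count is not an independent test of the set. Their log2 fold changes ran from 0.16 to 0.63 with a median of 0.31, against a median of -0.0005 over all genes tested. In fold terms the range was 1.117 to 1.548, and 1 member, Psph, was both called and at least 1.5-fold higher, where 10.5% of all genes tested were. For 7 of the 8, every UK-5099 library lay above every 3-inhibitor library, as it did for 30.7% of genes tested. Together the 8 genes made up 0.256% to 0.266% of a UK-5099 library and 0.211% to 0.217% of a 3-inhibitor library. Median centring moved the median of all genes tested from -0.0005 to -0.0892, left 6 of the 8 called, where 21.5% of genes were, and ended the calls of Shmt1 and Shmt2.

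**Figure D1:**
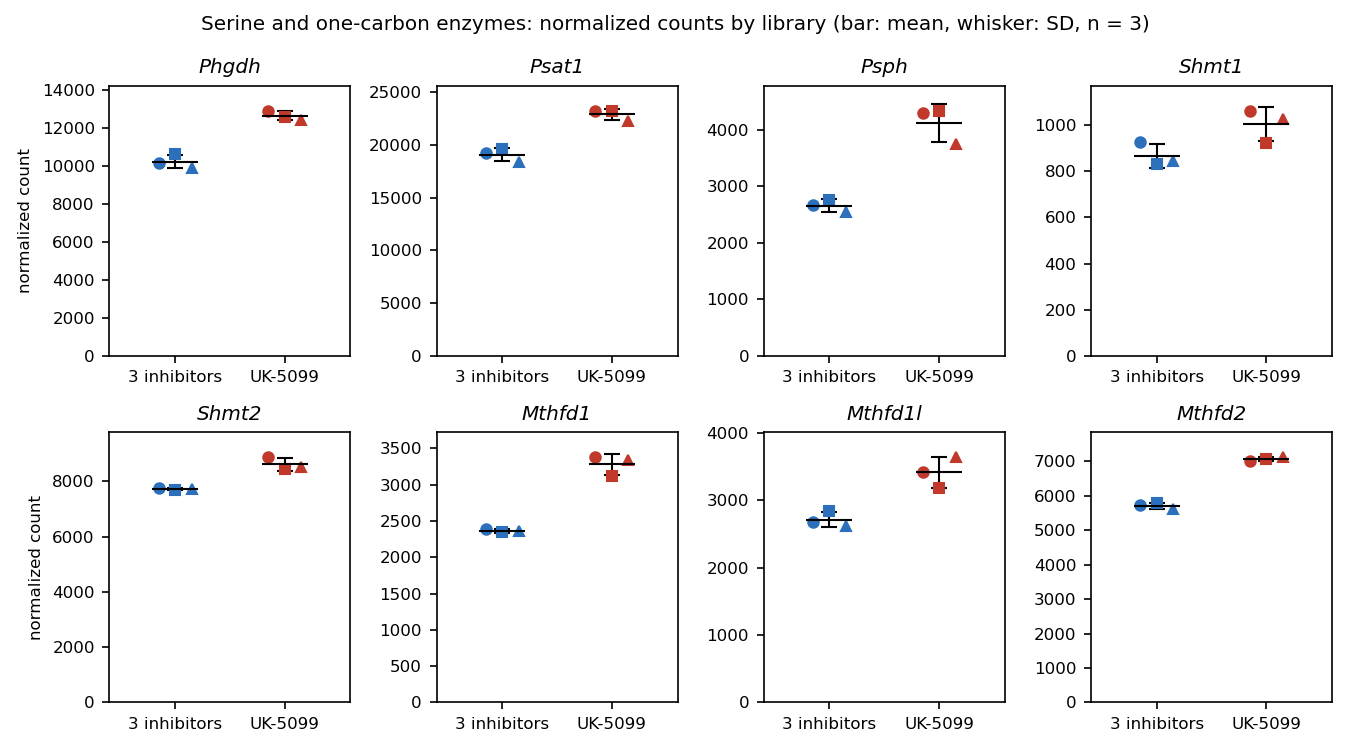
Normalized counts (vertical axis, from 0) of each of the 8 enzymes in the 3 libraries with 3 inhibitors (blue) and the 3 with UK-5099 (red). Circles, squares and triangles are replicates 1, 2 and 3, and the bar and whisker give the mean and SD. Groups overlap in Shmt1 alone.

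Psph, the phosphatase that ends serine synthesis, showed the largest difference among the 8. It stood at 4291, 4339 and 3740 normalized counts in UK-5099 replicates 1, 2 and 3, and at 2674, 2760 and 2544 in the 3-inhibitor libraries. All of the former were above the latter, and UK-5099 replicate 3 was the lowest of its group. The log2 fold change was 0.63 ± 0.06 (SE; limma, adjusted p = 3.77e-06), a 1.55-fold difference. In the GENCODE M21 annotation, 26.1% of the exon bases of Psph (452 bases) also lie in exons of Cct6a, a chaperonin subunit gene on the opposite strand. The normalized count of Cct6a was 8751 ± 310.4 in UK-5099 libraries and 5646 ± 206.1 in the others (SD, n = 3), a 1.55-fold difference. The labels do not say whether reads were counted by strand, so reads of the shared stretch cannot be told apart. The value of Psph is therefore uncertain, and how far reads of Cct6a enter its count and its difference was not tested.

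Phgdh, which commits glycolytic carbon to serine, stood at 12909, 12569 and 12434 normalized counts with UK-5099 and at 10159, 10604 and 9904 with the 3 inhibitors. The groups did not overlap, and the log2 fold change was 0.31 ± 0.04 (limma, adjusted p = 6.37e-05). Its listed pseudogene Phgdh-ps1 held at most 19.5 normalized counts in any library. For Psat1, the aminotransferase, the values were 23190, 23259 and 22298 with UK-5099 against 19271, 19583 and 18369. Again every UK-5099 library was higher, with a log2 fold change of 0.26 ± 0.04 (limma, adjusted p = 0.000266).

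Among the mitochondrial enzymes, Mthfd2 had the smallest standard error of the 8. Its libraries held 7022, 7068 and 7128 normalized counts with UK-5099 and 5746, 5779 and 5617 with the 3 inhibitors, a log2 fold change of 0.31 ± 0.04 (limma, adjusted p = 2.56e-05). Mthfd1l, the mitochondrial formyltetrahydrofolate synthetase, stood at 3418, 3187 and 3644 against 2681, 2838 and 2620. Its groups did not overlap either, and the log2 fold change was 0.33 ± 0.05 (limma, adjusted p = 0.0003). Shmt2, the mitochondrial hydroxymethyltransferase, had the smallest difference, with 8881, 8449 and 8533 against 7744, 7689 and 7717 normalized counts. That is 1.117-fold, a log2 fold change of 0.16 ± 0.04 (limma, adjusted p = 0.00391). After median centring it was 0.07 and no longer called (adjusted p = 0.121, the highest over its alternatives, the lowest being 0.000808). Shmt2 shares 1.39% of its exon bases with Ndufa4l2 on the opposite strand, which was 2.98-fold lower.

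In the cytosol, Mthfd1 stood at 3382, 3119 and 3347 normalized counts with UK-5099 and at 2394, 2343 and 2360 with the 3 inhibitors. The groups lay well apart, with a log2 fold change of 0.47 ± 0.04 (limma, adjusted p = 3.75e-06), the second largest of the 8. Shmt1, the cytosolic hydroxymethyltransferase, was the member whose groups overlapped. Its values were 1063, 921.5 and 1028 against 924.6, 831.1 and 844.1, so UK-5099 replicate 2 fell just below 3-inhibitor replicate 1. The log2 fold change of 0.21 ± 0.07 was called (limma, adjusted p = 0.0197). It was lost when UK-5099 replicate 1 was left out (adjusted p = 0.0919), without 3-inhibitor replicate 2 (0.0846) or 3 (0.0763), after median centring (0.129) and in a fit without the trend (0.0702), in a range over alternatives from 0.00306 to 0.129. Shmt1 shares 6.44% of its exon bases with Smcr8 on the opposite strand, which was 1.40-fold lower.

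Levels of different enzymes were compared per kilobase of exon in GENCODE M21, on GRCm38, since the authors' annotation is not given in the sources used here. On that scale the order was the same in both groups. Psat1 was first with 7805 ± 182.6 normalized counts per kilobase (SD, n = 3) in UK-5099 libraries and 6497 ± 214.7 in 3-inhibitor libraries, followed by Phgdh with 6676 ± 129.4 and 5400 ± 187. Shmt2 came next (3740 ± 99.4 and 3348 ± 12.0) and Mthfd2 after it (3392 ± 25.7 and 2741 ± 41.0). Psph, Mthfd1 and Mthfd1l followed at 2379, 1013 and 800.1 with UK-5099 and 1535, 729.9 and 635.4 with the 3 inhibitors. Shmt1 was last at 351.3 ± 25.7 and 303.2 ± 17.7. Neighbours in this order were apart by more than their SDs in each group. The place of Psph is less certain, since 26.1% of its exon bases are shared with Cct6a and those reads cannot be told apart.

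Whether paralogous enzymes differed unequally was asked with 4 ratios taken within each library, for which an exact two-sided permutation test of 3 against 3 cannot go below p = 0.1. The log2 ratio of Mthfd2 to Mthfd1 was 1.05, 1.18 and 1.09 with UK-5099 and 1.26, 1.3 and 1.25 with the 3 inhibitors, lower by 0.16 on average. That of Mthfd1l to Mthfd1 was 0.02, 0.03 and 0.12 against 0.16, 0.28 and 0.15, lower by 0.14. In both of these the groups did not overlap (exact permutation p = 0.1 each, 0.2 adjusted over the 4 pairs). The ratio of Shmt2 to Shmt1 averaged 3.103 ± 0.08 and 3.155 ± 0.08 (SD, n = 3; exact permutation p = 0.4, also after adjustment). That of Mthfd2 to Mthfd2l, the other mitochondrial dehydrogenase of this step, averaged 4.56 ± 0.05 and 4.45 ± 0.07 (exact permutation p = 0.2, adjusted p = 0.267). None of the 4 could pass a threshold of 0.05 with 3 libraries per group, so the test cannot decide whether paralogues differed unequally. Ratios of counts also do not correct for gene length.

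**Figure D2:**
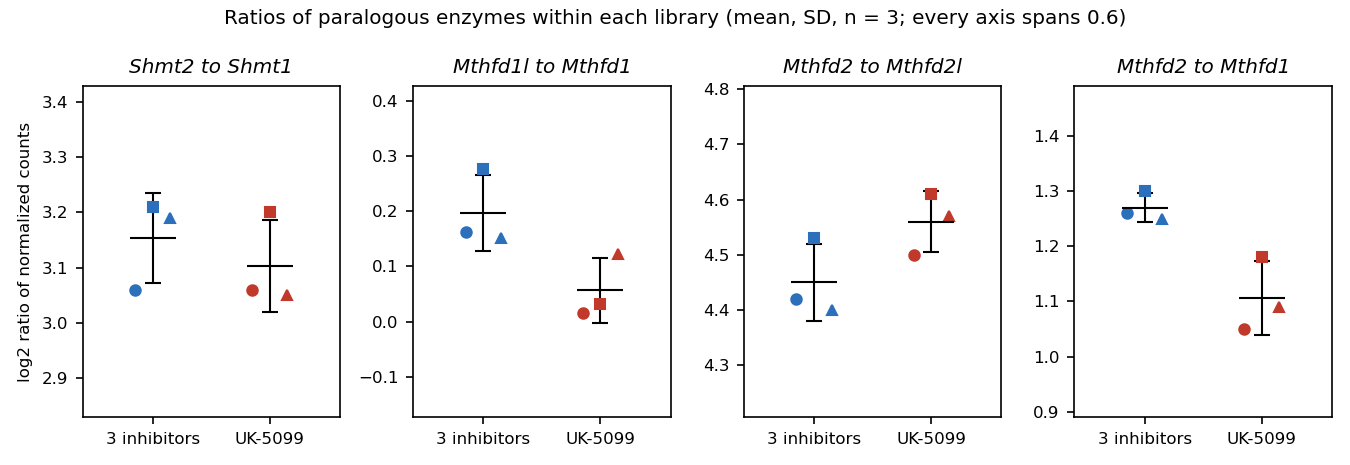
Log2 ratio of normalized counts of paralogous enzymes in each library (vertical axis, log2, each spanning the same width), by group, with mean and SD of 3 libraries. Symbols mark replicates 1, 2 and 3. Ratios to Mthfd1 lie lower with UK-5099 without overlap, and those of the other pairs overlap.

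The genes around the members did not all follow them. Among all genes tested 27.2% were higher and 26.6% lower. Of 17 listed folate cycle partners 15 were tested, 6 higher, 2 lower and 7 not called, with a median log2 fold change of 0.20. Ggh, which removes the glutamate tail of folates, had the largest difference among them, 2.205-fold, from 314.5 ± 19.9 normalized counts to 694 ± 23.8 (SD, n = 3). Tyms, thymidylate synthase, was 1.76-fold higher, and Gart and Atic, which use formyl folate in purine synthesis, were 1.74-fold and 1.34-fold higher. Aldh1l2, the mitochondrial enzyme that burns formyl folate to carbon dioxide, was 1.29-fold higher at 10476 ± 741.3 against 8117 ± 273.9. The sixth, chosen after its value was seen, was the folate carrier Slc19a1 at 1.57-fold.

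Slc46a1, the proton-coupled folate transporter, chosen after its value was seen, was among the lower partners (log2 fold change -0.68). The Mthfd2 paralogue Mthfd2l (0.20 ± 0.08, limma, adjusted p = 0.0639), the mitochondrial folate carrier Slc25a32 (0.04 ± 0.08) and the cytosolic Aldh1l1 (0.01 ± 0.11) were not called. Mthfd2l was called after upper-quartile rescaling (adjusted p = 0.031) and without the trend (0.0286), in a range up to 0.284.

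**Figure D3:**
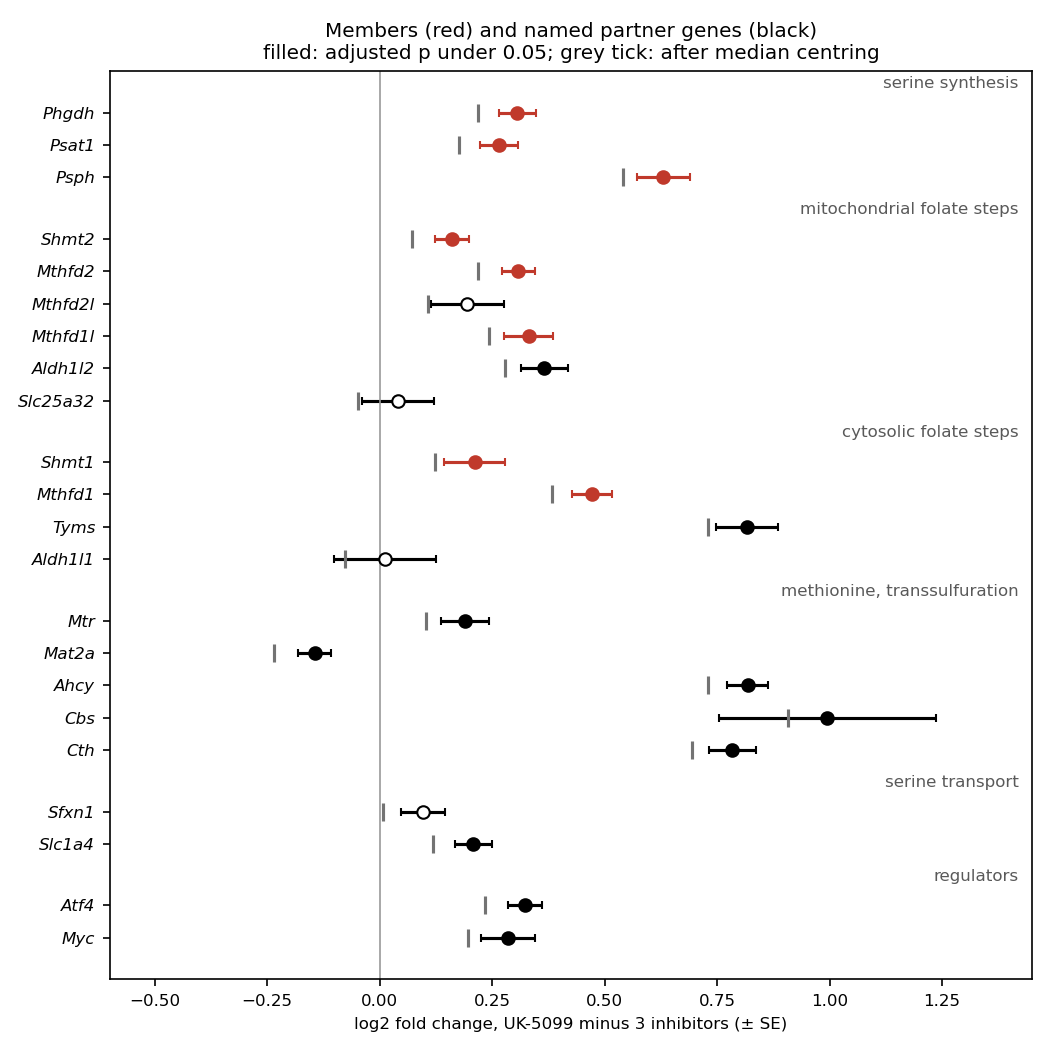
Log2 fold change, UK-5099 minus 3 inhibitors, with SE (horizontal axis) for the 8 members (red) and partner genes (black), ordered by role. Filled points were called, grey ticks give the value after median centring. Members lie between 0.16 and 0.63, and Mat2a lies below 0.

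The glycine cleavage system takes apart glycine left by serine hydroxymethyltransferase. Its carrier protein Gcsh was 1.29-fold higher and Dld, a dehydrogenase shared with pyruvate dehydrogenase, 1.14-fold higher, whereas Amt was not called. So 2 of 3 tested were higher, where 27.2% of all genes tested were. Dld was no longer called when UK-5099 replicate 1 was left out (limma, adjusted p = 0.0561), without the trend (0.0681) and after median centring (0.128), in a range from 2.88e-05. Gldc, its glycine decarboxylase, was too low to be tested, at 6.14 ± 3.12 normalized counts in UK-5099 libraries and 4.33 ± 1.69 in the others (SD, n = 3). In the methionine cycle and methyl supply list 10 of 15 genes were tested, 5 higher and 4 lower, with a median of 0.00. The shares over all genes tested were 27.2% higher and 26.6% lower. Ahcy, which clears the product of methylation reactions, was 1.76-fold higher at 3929 ± 144.4 against 2229 ± 85.6. Aldh7a1, which also acts in betaine synthesis, was 1.755-fold higher and methionine synthase Mtr 1.14-fold. The call of Mtr ended after median centring (adjusted p = 0.128, in a range from 0.00348). Going the other way, choline dehydrogenase Chdh was lower by 1.58 on the log2 scale (213.9 ± 15.1 against 640.8 ± 33.7), and Mat2a, which makes S-adenosylmethionine, had a log2 fold change of -0.14 and Ahcyl2 of -0.33.

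Transsulfuration carries serine into cysteine. Of the 4 genes listed with it 3 were higher, with a median log2 fold change of 0.62. The list also holds Sqor and Mpst, which are not steps from serine to cysteine. Mpst was not called (log2 fold change -0.09 ± 0.07). Cth, cystathionine gamma-lyase, held 7871, 7821 and 7069 normalized counts with UK-5099 and 4381, 4629 and 4203 with the 3 inhibitors, a 1.72-fold difference without overlap (limma, adjusted p = 2.64e-07). Cbs, which joins serine to homocysteine, was low in both groups at 42.2 ± 1.80 and 20.99 ± 4.75 (log2 fold change 1.00 ± 0.24). Sqor, a mitochondrial sulfide oxidase, was 1.37-fold higher. Of 16 genes of serine transport and use, 14 were tested, 4 higher and 5 lower, with a median of -0.04. Over all genes tested 27.2% were higher and 26.6% lower. The neutral amino acid transporter Slc1a4 was 1.155-fold higher, and its relative Slc1a5, known mainly for glutamine, was lower at 4547 ± 391.7 against 6834 ± 154.7. Sptlc1, a subunit of the enzyme that joins serine to palmitoyl-CoA, was 1.16-fold higher. Its partner subunit Sptlc2, named after its value was seen, was lower (log2 fold change -0.13 ± 0.04, limma, adjusted p = 0.0297), a call lost in 6 of 17 alternatives, 4 of them leaving out 1 of UK-5099 replicates 1 and 2 (adjusted p = 0.119 and 0.0743) or 3-inhibitor replicates 1 and 2 (0.0923 and 0.1), in a range from 0.00131. Sptlc3, the alternative subunit, was not called (-0.17 ± 0.09). Ptdss2, a phosphatidylserine synthase, had a log2 fold change of -0.40, and the mitochondrial serine carrier Sfxn1 was not called (0.10 ± 0.05, limma, adjusted p = 0.113). Sfxn1 was called after upper-quartile rescaling (0.0383) and without UK-5099 replicate 3 (0.0413), in a range up to 0.904.

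Of 9 regulators of serine synthesis 3 were higher and 4 lower, where 27.2% and 26.6% of all genes tested were. Atf4, which activates serine synthesis genes, stood at 17195, 17007 and 17292 normalized counts with UK-5099 and at 13863, 13906 and 13407 with the 3 inhibitors (log2 fold change 0.32 ± 0.04, limma, adjusted p = 2.41e-05). Myc was 1.22-fold higher, with 3267, 3347 and 3874 against 2894, 2895 and 2789. The kinases Eif2ak3 and Eif2ak1, which raise ATF4 translation under stress, had log2 fold changes of -0.72 and -0.37, and Nfe2l2, the antioxidant regulator, of -0.26. Of the other kinases of that family, both named after their values were seen, Eif2ak4, which senses amino acid shortage, was higher (0.23 ± 0.07, limma, adjusted p = 0.0136) and Eif2ak2 was not called (-0.02 ± 0.05). The call of Eif2ak4 was lost after median centring (adjusted p = 0.095) and when 3-inhibitor replicate 2 was left out (0.0661), in a range from 0.00553. ATF4 activity is controlled largely at translation, which RNA levels do not show. A list of 18 ATF4 target genes, which holds none of the 8 members, had 5 higher and 7 lower with a median of -0.01. The shares over all genes tested were the same 27.2% and 26.6%. The cystine transporter Slc7a11 was 2.74-fold higher, at 26612 ± 721.6 against 9714 ± 285.6 normalized counts. The other 4 higher, chosen after their values were seen, were Asns (1.40-fold), Ddit4 (1.21-fold), Trib3 (1.14-fold) and Chac1 (1.098-fold). Median centring ended the calls of Trib3 (adjusted p = 0.0581) and Chac1 (0.369), with ranges from 0.000287 and 0.00336. Chac1 was also not called without the trend (0.0653) or when UK-5099 replicate 1 (0.0822) or 3-inhibitor replicate 2 (0.0514) or 3 (0.0766) was omitted. Gdf15, Nupr1 and Stc2 had log2 fold changes of -1.10, -0.84 and -0.69.

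Genes of S phase and of purine synthesis, which consumes formyl folate, were higher alongside the members. Of 24 S phase and nucleotide supply genes 22 were higher and none lower, where 27.2% and 26.6% of all genes tested were. Their median log2 fold change was 0.78, above every member of the enzyme set. Rrm1 and Rrm2, the ribonucleotide reductase subunits, were 2.04-fold and 2.115-fold higher, and Mcm4 and Pola1 1.90-fold and 2.16-fold. Of 10 purine synthesis genes 7 were higher and none lower, beside the same shares over all genes tested. Their median was 0.35, and they include Impdh2 at 1.64-fold and Pfas at 1.68-fold (Gart and Atic are in both this list and that of folate partners). The proliferation marker Mki67 was 1.50-fold higher. Whether the members' difference followed that in cycling cells was not tested.

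**Figure D4:**
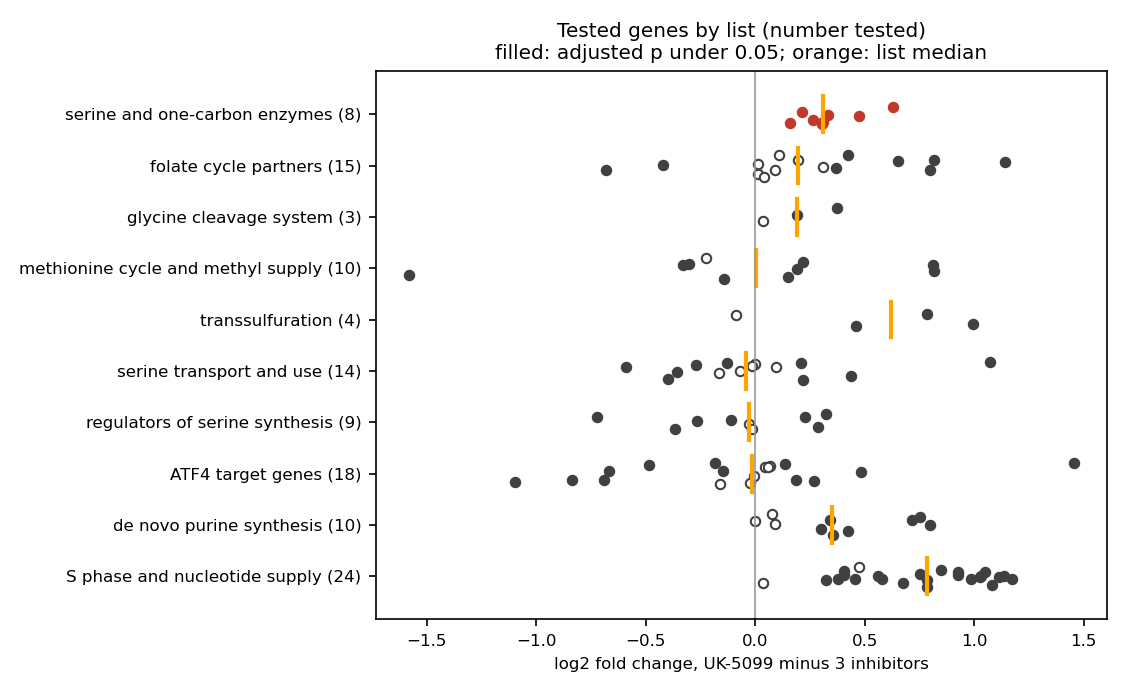
Log2 fold change (horizontal axis, UK-5099 minus 3 inhibitors) of each tested gene by list, with the number tested. Filled points were called and orange bars are list medians. The 8 members lie between 0.16 and 0.63 with a median of 0.31, the ATF4 target genes spread on both sides of 0, and S phase genes lie higher with a median of 0.78.

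For the members, the gene with the most similar profile was sought among 7434 well-expressed named genes, by the root mean square difference of centred log2 values over the 6 libraries. For Mthfd2 it was Atf4, at 0.0115. It was Dlat, a subunit of pyruvate dehydrogenase, for Psat1 (0.00657), Psmb3, a proteasome subunit, for Psph (0.0129) and Ctr9 for Shmt2 (0.0131). For Mthfd1 it was Pnn (0.00997), for Mthfd1l Stard4 (0.0284) and for Shmt1 Pkd2 (0.0264). Each of these genes was itself higher with UK-5099 and called. The measure keeps the difference between the groups, so a nearest gene was bound to be close to its member in fold change. That they were called is therefore no separate result, and shared control was not tested.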

How the data were processed

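Per the labels, libraries were made from 1 to 1.5 µg of total RNA with the VAHTS Universal V8 kit. HISAT2 2.1.0, DESeq2 1.36.0 and the build GRCm39 appear in the submitters' processing notes, with no role. For the read counter, its strand setting and the annotation, the labels have no entry. The authors' deposited values are in another unit than counts, namely log2 of gene counts scaled per library by a size factor; a text mark in place of a value was read as 0.

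Values were raised to normalized counts. Of 57107 entries 359 repeated an identifier. Genes with a mean of at least 10 were tested on log2(normalized count + 1) with limma 3.58.1 in R 4.3.3, two-sided and without covariates, with a mean-variance trend in eBayes, adjusted by Benjamini-Hochberg over all genes tested. A log2 fold change is UK-5099 minus 3 inhibitors on that scale, with its SE. Whole reads were recovered for at least 99.987% of nonzero values per library (within 0.02 of a whole number). The steps were tested on simulated data.

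The members and all lists were chosen with earlier results of these data known. Named genes were the 8 members, 17 partners whatever their result, up to 4 called genes per pathway list by smallest adjusted p, and each member's nearest profile; a few of these are not reported here. Alternatives were pseudocounts of 0.5 and 5, no low filter or a minimum of 50, upper-quartile rescaling, median centring, limma without trend or robust, a threshold of 0.01, the replicate block, each library left out and, added after the data were seen, limma-voom on recovered reads. Python 3.11.15 with scipy 1.17.1 gave the exact tests.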

Additional observations from a re-analysis of the deposited data

How the results depend on the processing

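The number of members called higher was 8 in the main analysis, 6 after median centring and 7 without the trend, at a threshold of 0.01 and when UK-5099 replicate 1 or 3-inhibitor replicate 2 or 3 was omitted, and 8 in the other alternatives. No member reversed direction or was called lower in any of them. Genes called in all ranged from 6648 to 9146 around 8449. Some small counts moved by over 1.5 times. Higher glycine cleavage genes went from 2 to 1 (median centring, no trend, without UK-5099 replicate 1, threshold of 0.01). Higher methionine cycle genes went from 5 to 2 (median centring, threshold of 0.01) or 3 (without UK-5099 replicate 1). Lower genes of serine transport and use went from 5 to 3 (no low filter, threshold of 0.01, or omitting replicate 1 or 2 of either group). Higher ATF4 target genes went from 5 to 3 (median centring), and higher multiciliated markers from 2 to 1 (minimum mean of 50). The cause was not tested. The replicate block left 8 members and 8423 genes called. The labels do not say that equal numbers mark a shared source, and the deviations of same-numbered libraries from their group means had correlations of -0.017, 0.116 and -0.089, so libraries were not treated as pairs. Genes under about 50 normalized counts, such as Cbs, rest on few reads.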
